A study of Oryza sativa with 4 samples.

Results

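In the library labelled Osmads6, 62 of 20675 measured rice palea genes stood at least 4-fold below the lowest of the other 3 libraries. These genes were chosen by that difference itself. Levels are in FPKM, which counts sequenced fragments per transcript length and per library depth. The 2 columns of each genotype were averaged, and from a table of 55986 genes those whose 4 genotype means averaged 1 FPKM or more were kept. A gene was a member where log2((Osmads6 + 1)/(lowest of the other 3 + 1)) was -2 or less. A gene could pass the filter on low values through the 3 libraries where it was high, and the low level of the members in Osmads6 describes how they were selected and was not tested. The 62 make up 0.300% of the measured genes.

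All 4 samples were labelled as palea, the bract that faces the lemma and with it closes the rice floret. The groups were Osmads6 (Nipponbare background, a Tos17 retrotransposon insertion), Osmads32 (AF36 background, a T-DNA insertion), rep1 (a japonica deletion mutant) and wild type (japonica). Plants were grown in a paddy field, and no age or floral stage was labelled. There was 1 sample per genotype with 2 columns of values, treated here as 2 runs of that sample, so n = 1 per genotype, no difference below has a replicate check and no p-value is given. Mutation and background cannot be told apart. The number of plants, or of mutant lines, behind a sample was not given in the sources used here.

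OsMADS6 encodes a MADS-box transcription factor of the AGL6 group, which acts in the identity of the palea and the inner floral organs and in the floral meristem. OsMADS32 is a further MADS-box factor of floral patterning, and REP1 is a TCP factor of palea growth. The tapetum is the cell layer that feeds developing pollen inside the anther and makes lipids and proteins for the pollen wall, while a green bract makes chlorophyll-binding proteins of the light-harvesting complexes.

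The labels were checked with the transcripts of the targeted genes. OsMADS6 (LOC_Os02g45770) stood at 127 FPKM in the library labelled Osmads6, 262 FPKM in that labelled Osmads32, 842 FPKM in that labelled rep1 and 13.5 FPKM in that labelled wild type. The transcript thus ran against the Osmads6 and wild type labels, being lowest in the library labelled wild type. The reason was not tested. OsMADS32 stood at 14.9 FPKM in Osmads6, 8.32 in its own labelled mutant, 2.78 in rep1 and 7.19 in wild type, so it was lowest in rep1 and not in the library labelled Osmads32. REP1 was at or under 0.201 FPKM in all 4. The OsMADS32 symbol was absent from the gene table used for checking, and REP1 was found there on another chromosome only, so neither locus was checked. Libraries are therefore named by their labels throughout, and each direction depends on them. With the columns labelled Osmads6 and wild type exchanged, the same 62 genes were lowest in wild type, by construction. The rule for Osmads6 then picked the 2 genes that had been lowest in wild type.

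The members were present at moderate to high levels in the other 3 libraries. Their median was 1.53 FPKM in the library labelled Osmads6, 22.1 FPKM in that labelled Osmads32, 38.6 FPKM in that labelled rep1 and 23.6 FPKM in that labelled wild type. Over all measured genes the medians were 9.33 FPKM in Osmads6, 8.76 in Osmads32, 8.02 in rep1 and 9.16 in wild type. The members ranged between 0 and 186 FPKM in Osmads6, 3.92 and 841 FPKM in Osmads32, 4.33 and 1480 FPKM in rep1, and 4.21 and 1269 FPKM in wild type. In Osmads6, 27 members were under 1 FPKM, 23 were at 1 to 10 FPKM and 12 were at 10 FPKM or more. Low values therefore made up much of the group, but its most abundant member there still had 186 FPKM.

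**Figure D1:**
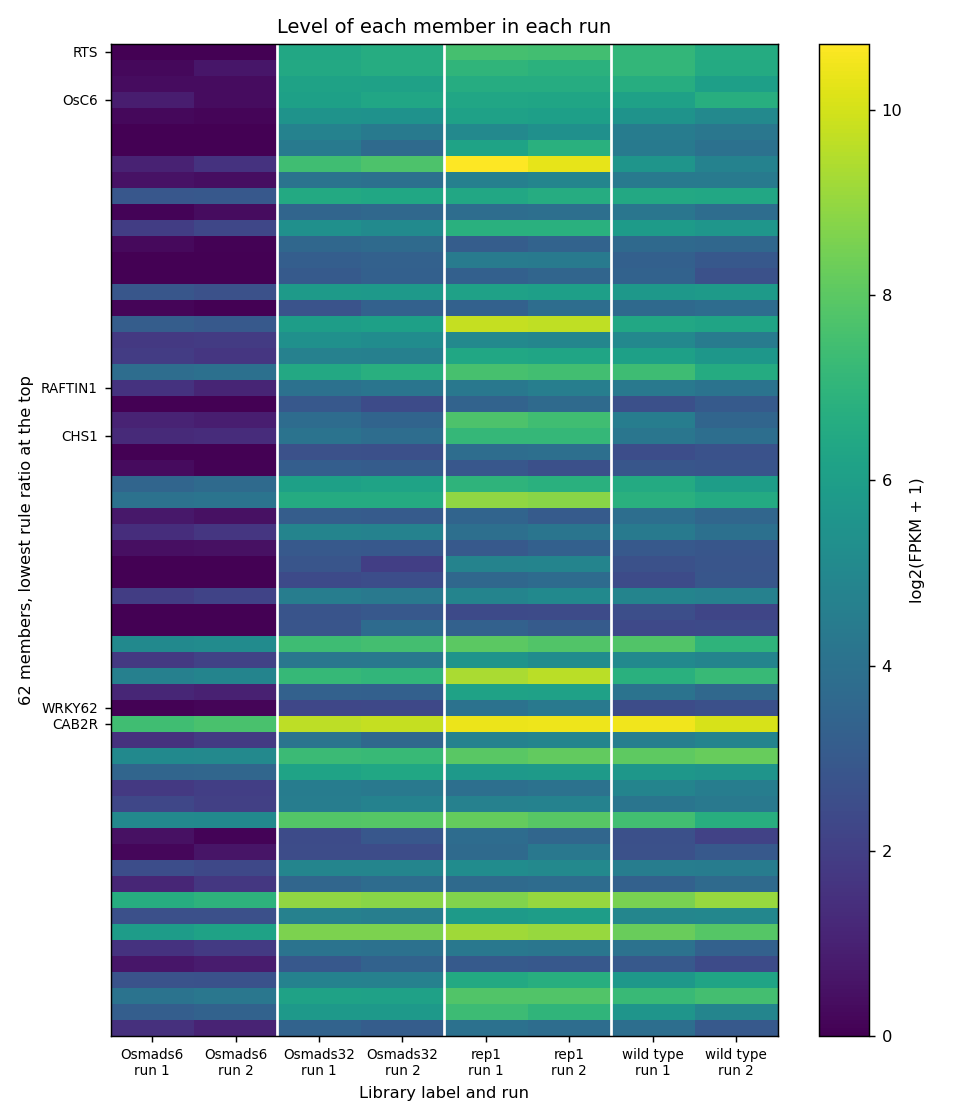
Level of each of the 62 members as log2(FPKM + 1) (colour) in the 2 runs of each library (columns), ordered by the rule's ratio with the lowest at the top. The Osmads6 runs on the left are darker than the other 6 in every row because the members were chosen that way, and some rows are brightest in the rep1 runs.

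The table gives locus IDs and no gene names. Names came from 28 lists of rice genes, and a name is used only where its place in the RefSeq gene table matched the locus. By that check 6 members could be named: the anther genes RTS, OsC6 and RAFTIN1, the light-harvesting gene CAB2R, the flavonoid gene CHS1 and the defence regulator WRKY62. A further 3 members were in lists of photosynthesis genes with unchecked names, and 53 were in no list.

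The anther genes included the member lowest by the rule. RTS (LOC_Os01g70440), a tapetum gene needed for male fertility, was at 0 FPKM in both runs of the library labelled Osmads6. It had 83.9 and 98.3 FPKM in the runs of that labelled Osmads32, 188 and 179 FPKM in those labelled rep1 and 136 and 96.5 FPKM in those labelled wild type. No read of RTS was recovered in Osmads6, and at a floor of 3 reads per run it was at least 742-fold lower than in Osmads32 and at least 947-fold lower than in wild type. Both rep1 runs were above all others, and the Osmads32 and wild type runs overlapped.

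OsC6 (LOC_Os11g37280), which encodes a lipid transfer protein used in building the pollen wall, had 0.831 and 0.271 FPKM in the Osmads6 runs. It had 66.6 and 80.3 FPKM in the Osmads32 runs, 80.5 and 78.5 FPKM in the rep1 runs and 70.1 and 104 FPKM in the wild type runs. Its mean in Osmads6 was 133-fold below Osmads32, 144-fold below rep1 and 158-fold below wild type. The runs of the other 3 libraries overlapped, so their order for OsC6 was not resolved.

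RAFTIN1 (LOC_Os08g38810) encodes a BURP-domain protein of the anther, known in wheat as a tapetum product carried to the pollen surface. It had 1.93 and 1.14 FPKM in the Osmads6 runs, against 14.9 and 17.0 FPKM in Osmads32, 18.5 and 23.3 FPKM in rep1 and 19.2 and 15.7 FPKM in wild type. The mean in Osmads6 was 10.4-fold below Osmads32, 13.6-fold below rep1 and 11.4-fold below wild type. The wild type runs overlapped those of both Osmads32 and rep1, while both rep1 runs lay above both Osmads32 runs.

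The remaining anther genes were mixed. Of the 17 anther and tapetum genes with a checked name, 12 passed the filter. Of these 12, 3 were members, and the same 3 were lowest in Osmads6 by at least 2-fold on the FPKM + 1 scale. By their mean 6 were highest in Osmads6, 2 of them by 2-fold. The share of all genes highest in Osmads6 at any margin was not counted. The median ratio of the 12 to the lowest of the other 3 was 0.79. Among all measured genes 595 (2.88%) were lowest in Osmads6 by 2-fold, 919 (4.44%) were highest by 2-fold, and the median ratio was 0.31. With unchecked names included, the list had 27 measured genes, 3 members and 5 genes lowest by 2-fold.

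The other 9 checked genes that passed the filter ran in both directions. MSP1, a receptor kinase that limits the number of spore mother cells, had 14.9 FPKM in Osmads6, 6.35 in Osmads32, 3.50 in rep1 and 3.02 in wild type. TDR, a bHLH factor of tapetum breakdown, had 4.50 FPKM in Osmads6, 1.03 in Osmads32, 0.896 in rep1 and 1.08 in wild type. Among the 12 these were highest in Osmads6 by 2-fold. AP37, an aspartic protease gene under the filter, also met that mark, with 2.59 FPKM in Osmads6, 0.160 in Osmads32, 0.0710 in rep1 and 0.158 in wild type.

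TIP2, a bHLH factor that acts upstream of TDR, stood at 2.27 FPKM in Osmads6, 0.517 in Osmads32, 1.01 in rep1 and 0.687 in wild type. GAMYB, the gibberellin-responsive MYB factor of the anther, had 13.2 FPKM in Osmads6, 5.83 in Osmads32, 7.32 in rep1 and 8.12 in wild type. Both were above the highest of the other 3 libraries, by less than 2-fold on the FPKM + 1 scale. EAT1, a bHLH factor of late tapetum development, was lowest in Osmads6 as the members were, at 0.919 FPKM in Osmads6, 2.38 in Osmads32, 2.02 in rep1 and 2.44 in wild type, by less than 2-fold on the FPKM + 1 scale.

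The other checked anther genes were UDT1, an early tapetum bHLH factor, CYP703A3, a fatty acid hydroxylase of the pollen wall, API5 and the aspartic protease AP25. UDT1 had 4.80 FPKM in Osmads6, 7.89 in Osmads32, 3.80 in rep1 and 5.03 in wild type. CYP703A3 had 8.29 FPKM in Osmads6, 5.10 in Osmads32, 4.05 in rep1 and 9.29 in wild type. In neither was Osmads6 outside the range of the other 3 libraries. AP25 had 57.2 FPKM in Osmads6, 54.4 in Osmads32, 22.4 in rep1 and 32.6 in wild type. API5 had 19.2 FPKM in Osmads6, 13.3 in Osmads32, 11.4 in rep1 and 11.5 in wild type. Besides AP37, 4 checked genes were under the filter. INV4, an anther cell wall invertase, had 0.00611 FPKM in Osmads6, 0.199 in Osmads32, 2.87 in rep1 and 0.242 in wild type, and so was lowest in Osmads6 too. CP1, PTC1 and TDL1A were under 1 FPKM in all 4 libraries.

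**Figure D2:**
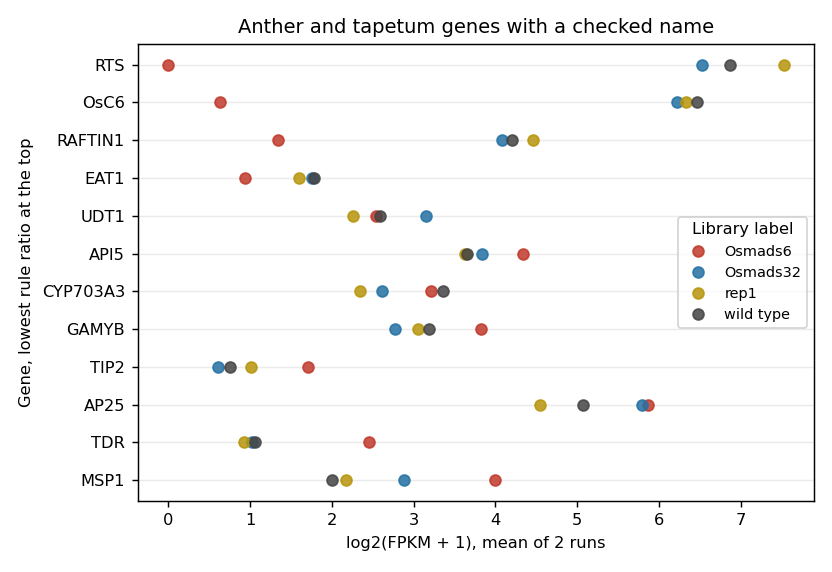
Mean of 2 runs as log2(FPKM + 1) (horizontal axis) of the 12 anther and tapetum genes with a checked name, 1 point per library, ordered by the rule's ratio. RTS, OsC6 and RAFTIN1 at the top lie far to the left in Osmads6, while TDR and MSP1 at the bottom lie to its right end.

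The summed level of the 12 anther genes was 127 FPKM in the library labelled Osmads6, 277 in that labelled Osmads32, 340 in that labelled rep1 and 295 in that labelled wild type. That order rests on the 3 members, chosen for being low in Osmads6: the other 9 genes summed to 125 FPKM in Osmads6, 96.7 in Osmads32, 56.4 in rep1 and 73.8 in wild type, highest in Osmads6. With unchecked names and genes under the filter included, the 38 listed anther genes in the table summed to 854 FPKM in Osmads6, 1475 in Osmads32, 812 in rep1 and 1354 in wild type, lowest in rep1. Only RTS among the 12 was at 0 in Osmads6. The 3 genes of lodicule and stamen identity summed to 50.4 FPKM in Osmads6, 134 in Osmads32, 171 in rep1 and 82.2 in wild type, and all 3 were lowest in Osmads6 (29.1% of all measured genes were), none by 2-fold (2.88% of all were). The 5 carpel and ovule genes, 4 of which passed the filter, summed to 21.2 FPKM in Osmads6, 89.7 in Osmads32, 27.8 in rep1 and 24.9 in wild type, with 3 of the 4 lowest in Osmads6 and 1 of them by 2-fold. Of the 15 measured genes in the lemma and palea list none was a member. In this list 4 were lowest in Osmads6, near the 29.1% of all measured genes, and 1 was by 2-fold (2.88% of all were). With 1 more under the filter, these 16 genes summed to 1141 FPKM in Osmads6, 1206 in Osmads32, 674 in rep1 and 1356 in wild type. The 6 checked meiosis genes summed to 18.6 FPKM in Osmads6, 18.2 in Osmads32, 11.4 in rep1 and 17.3 in wild type. Of the 4 that passed the filter, 3 were highest in Osmads6, none by 2-fold (4.44% of all were), and 1 was lowest. The share of all genes highest at any margin was not counted, so these few genes show no direction. With unchecked names, 10 meiosis genes summed to 24.7 FPKM in Osmads6, 27.5 in Osmads32, 19.5 in rep1 and 23.8 in wild type. The 5 meristem genes summed to 13.7 FPKM in Osmads6, 41.3 in Osmads32, 91.1 in rep1 and 24.2 in wild type. The part that other floral organs in the samples had in these values was not tested, and in bulk tissue fewer cells of a type and less RNA per cell cannot be told apart.

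Photosynthesis contributed the member most abundant in Osmads6, Osmads32 and wild type. CAB2R (LOC_Os01g41710), a chlorophyll a/b-binding protein of the photosystem II antenna, had 172 and 200 FPKM in the Osmads6 runs. It had 801 and 881 FPKM in the Osmads32 runs, 1336 and 1374 FPKM in the rep1 runs and 1450 and 1087 FPKM in the wild type runs. Its mean in Osmads6 was 4.53-fold below Osmads32, 7.29-fold below rep1 and 6.83-fold below wild type. The rep1 runs lay between the wild type runs, and both Osmads32 runs lay under all of those. Some light-harvesting genes are near-identical copies that can share reads, so single values are uncertain to that extent. Shared reads were not tested.

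CAB1R, a second antenna gene with a checked name, was no member, with 98.7 FPKM in Osmads6, 245 in Osmads32, 545 in rep1 and 738 in wild type. Of the 17 measured genes of light harvesting and photosystem II, 3 were members, 10 were lowest in Osmads6 by 2-fold, all 17 were lowest of the 4 libraries and the median ratio was -1.22, but only 2 of the 17 names were checked. Of 21 genes in the photosystem I list, which also holds electron transport genes and an ATP synthase gene, none was a member. In this list 6 were lowest by 2-fold and 20 were lowest of 4. Of 15 genes in the Calvin cycle and photorespiration list, 1 was a member, 4 were lowest by 2-fold and 14 were lowest of 4. Only 4 names in the photosystem I list were checked, most of them not subunits of photosystem I. Of the Calvin cycle and photorespiration names 3 were checked. All checked genes of both lists were lowest of 4 and none was lowest by 2-fold. The 2-fold counts of both lists therefore rest on unchecked names. Of 10 checked genes of chlorophyll metabolism and its regulators, 1 was lowest by 2-fold and 5 were lowest of 4. Over all measured genes 2.88% were lowest in Osmads6 by 2-fold and 6026 (29.1%) were lowest of 4. These lists were written with the earlier photosynthesis result known, so their direction is no independent evidence.

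The checked genes in the Calvin cycle and photorespiration list were no members and differed less from wild type than the checked antenna genes. RCA, Rubisco activase, was 1.39-fold lower in Osmads6 than in Osmads32, 1.75-fold lower than in rep1 and 2.34-fold lower than in wild type. PPDKB, a pyruvate phosphate dikinase, was 1.34-fold lower than in Osmads32, 2.70-fold lower than in rep1 and 3.59-fold lower than in wild type. GLO1, a glycolate oxidase, was 3.31-fold lower than in Osmads32, 1.12-fold lower than in rep1 and 1.37-fold lower than in wild type.

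The single flavonoid member and the single defence member differed from CAB2R in shape, with the rep1 library well above the others. This shape was not particular to them. Rep1 was at least 2-fold above both Osmads32 and wild type for 15 of 62 members (24.2%, against 3.43% of all genes). CHS1 (LOC_Os11g32650), chalcone synthase, which makes the first flavonoid intermediate, had 1.46 and 1.58 FPKM in the Osmads6 runs. It had 16.0 and 13.2 FPKM in the Osmads32 runs, 142 and 142 FPKM in the rep1 runs and 17.3 and 13.6 FPKM in the wild type runs. CHS1 in rep1 was 9.17-fold above wild type, while the runs of Osmads32 and wild type overlapped. Chalcone isomerase (CHI), the next enzyme, was no member but had the same order of extremes, with 26.4 FPKM in Osmads6, 67.1 in Osmads32, 128 in rep1 and 46.9 in wild type.

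WRKY62 (LOC_Os09g25070), a WRKY transcription factor known as a repressor of rice defence, gave 1 and 3 reads in the Osmads6 runs. It gave 120 and 119 reads in Osmads32, 424 and 512 reads in rep1 and 173 and 175 reads in wild type. On the counts of both runs it was 53.8-fold lower in Osmads6 than in Osmads32 (95% exact Clopper-Pearson interval 20.7 to 199), 237-fold lower than in rep1 (92.3 to 872) and 66.1-fold lower than in wild type (25.6 to 244). These intervals cover counting error only. WRKY62 was chosen by the same values, so they leave out the selection and do not test the difference. In rep1 WRKY62 was 3.59-fold above wild type.

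Other defence genes gave no common direction. WRKY76 (LOC_Os09g25060), a related repressor at a neighbouring locus that can share reads with WRKY62, had 4.60 FPKM in Osmads6, 8.01 in Osmads32, 63.5 in rep1 and 17.6 in wild type. WRKY71 had 99.3 FPKM in Osmads6, 106 in Osmads32, 31.0 in rep1 and 51.1 in wild type. The pathogenesis-related gene PBZ1 had 341 FPKM in Osmads6, 170 in Osmads32, 275 in rep1 and 276 in wild type. The chitinase gene CHT1 had 40.9 FPKM in Osmads6, 4.17 in Osmads32, 26.4 in rep1 and 6.31 in wild type. Of the 6 checked defence genes, WRKY62 alone was lowest in Osmads6 by 2-fold. Both Osmads6 runs were above all others for CHT1, and both rep1 runs for WRKY62 and WRKY76. For PBZ1, WRKY71 and the sixth gene, a chitinase, the runs of the highest libraries overlapped and their order was not resolved.

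**Figure D3:**
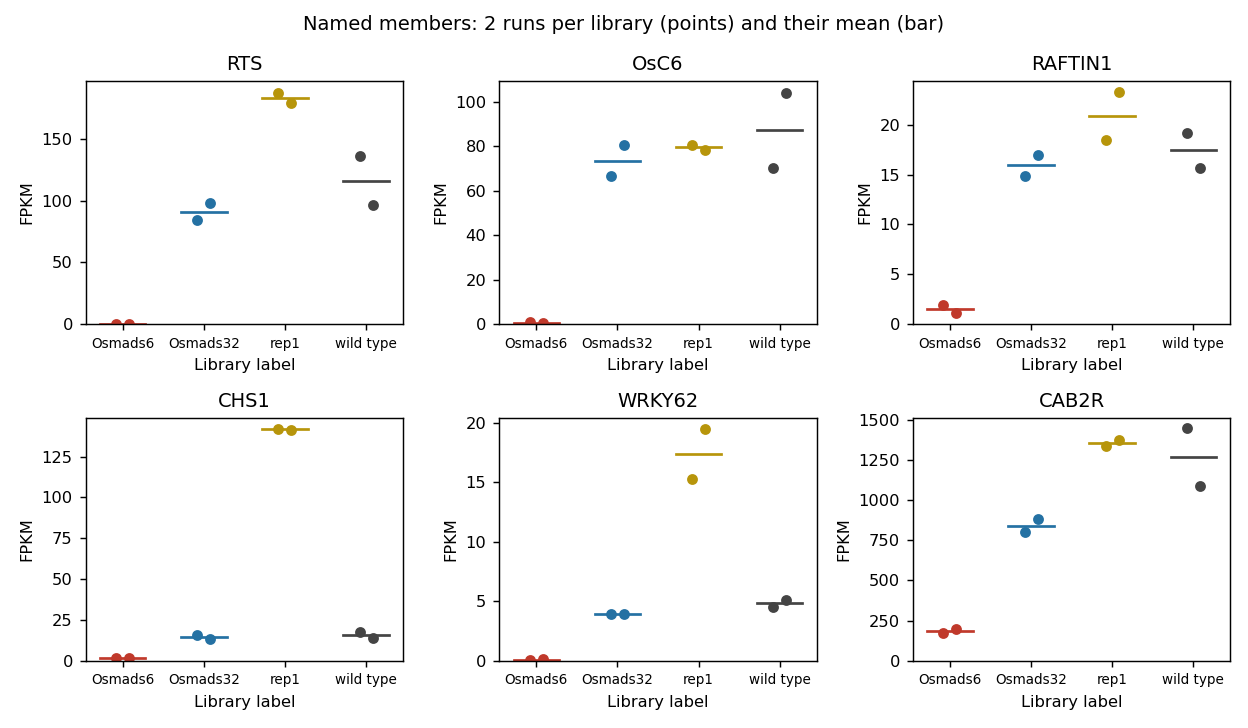
FPKM of the 6 members with a checked name in each run (points) and their mean (bar), by library with Osmads6 on the left. OsC6 runs overlap among the other 3 libraries, RAFTIN1 is higher in both rep1 runs than in both Osmads32 runs, RTS, CHS1 and WRKY62 peak in rep1, and CAB2R has the highest values.

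Of the members with no name, 2 are given by locus. LOC_Os01g41140 had the lowest ratio among them, with 0.363 FPKM in Osmads6, 92.8 in Osmads32, 122 in rep1 and 115 in wild type. LOC_Os05g33150 had the highest mean of the other 3 libraries among them, a mean carried by rep1, with 1.02 and 1.98 FPKM in the Osmads6 runs. It had 171 and 209 FPKM in the Osmads32 runs, 1683 and 1278 FPKM in the rep1 runs and 46.9 and 25.7 FPKM in the wild type runs. It was 40.8-fold higher in rep1 than in wild type and 5.24-fold higher in Osmads32 than in wild type, and these 2 ratios share the wild type sample.

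Some members gave no reads in the library labelled Osmads6, which the rule favours. Of the 62 members, 11 were at 0 in both Osmads6 runs. At a floor of 3 reads per run they were at least 24.5-fold to at least 742-fold below the lowest other library, with a median bound of 58.6-fold. The other 51 were 4.14-fold to 298-fold below it, with a median of 8.10-fold. Among all measured genes, 35 were at 0 in both runs of Osmads6, 19 in Osmads32, 33 in rep1 and 13 in wild type. Counts at 0 can depend on depth, which was lowest in Osmads6 run 1 and highest in the wild type runs. With at least 3 FPKM asked of each of the other 3 libraries, 11 were at 0 in Osmads6, none in Osmads32, 3 in rep1 and none in wild type.

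The rule asked that each of the other 3 libraries lie at least 4-fold above Osmads6 and did not set their order. Genes low in any of the 3 were left out, so shares and medians compare a selected group with all genes. How much of each contrast comes from this selection was not tested. They lay within 2-fold of each other, on the FPKM + 1 scale, for 38 of 62 members (61.3%), against 78.3% of all measured genes. Over all 62, rep1 was the highest of the 3 for 47 members (75.8%, against 29.8% of all genes), Osmads32 for 9 and wild type for 6. The lowest of the 3 was Osmads32 for 33 members, wild type for 24 and rep1 for 5.

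Compared with wild type, rep1 was at least 2-fold higher for 17 members and 2-fold lower for none, against 5.13% higher and 8.78% lower over all genes. The median log2 ratio of rep1 over wild type was 0.47 over the members and -0.15 over all genes, and it was above 0 for 52 of 62. Compared with Osmads32, rep1 was 2-fold higher for 22 and lower for none, against 6.47% and 9.62% of all genes, with a median of 0.62 over the members and -0.10 over all. A gene low in rep1 could not become a member unless it was lower still in Osmads6. This limits what the absence of lower genes and the medians show. Both comparisons share the rep1 sample.

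Osmads32 stood near wild type. It was at least 2-fold higher for 1 member and lower for 3, against 1.81% and 3.34% of all genes, and the median log2 ratio of Osmads32 over wild type was -0.11 over the members and -0.03 over all genes.

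Rep1 was at least 2-fold above both Osmads32 and wild type for 15 members (24.2%), against 3.43% of all genes, and at least 4-fold above both for 9 (14.5%), against 0.711%. CHS1 and LOC_Os05g33150 were among the 9, and WRKY62 among the 15. RTS, OsC6, RAFTIN1 and CAB2R were in neither count. The rule's cut on low rep1 values bears on these shares too.

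**Figure D4:**
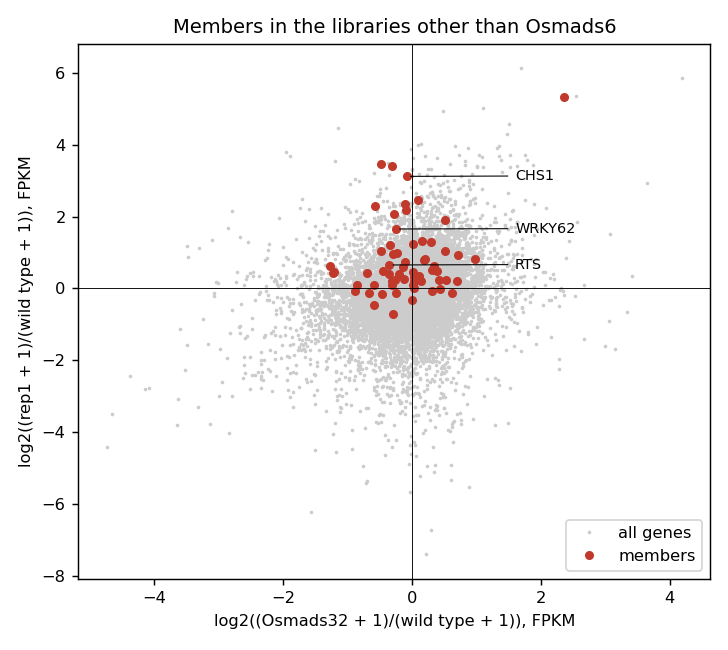
log2 ratio of FPKM + 1 of rep1 over wild type (vertical axis) against Osmads32 over wild type (horizontal axis) for the 62 members (red) and all 20675 measured genes (grey). Members lie near 0 horizontally and mostly above 0 vertically, 52 of 62, and the axes share the wild type sample.

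The 2 runs of a library described their own spread only. Both Osmads6 runs lay under all 6 other runs for 62 of 62 members, against 18.2% of all genes, and this follows closely from the rule. Recovered depth was 37201858 to 55110869 reads per run, with the wild type runs the deepest and Osmads6 run 1 the shallowest.

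The same rule applied to the other libraries picked 9 genes lowest in Osmads32 (0.0435%), 209 lowest in rep1 (1.01%) and 2 lowest in wild type (0.00967%). The library labelled Osmads6 thus came after rep1 in this count. Within Osmads6, 15 members had a ratio of -3 or less, 7 of -4 or less and 5 of -5 or less, and 31 lay between -2.5 and -2.

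**Figure D5:**
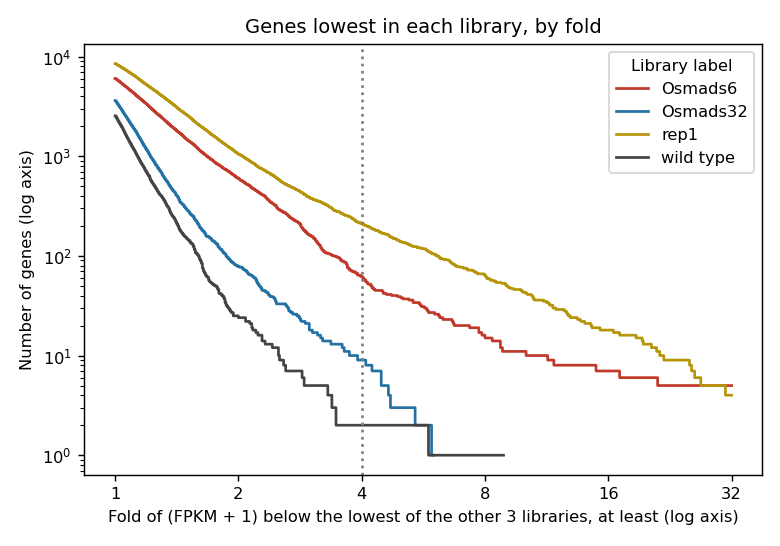
Number of genes (vertical log axis) that stood below the lowest of the other 3 libraries by at least the fold on the horizontal log axis, counted on FPKM + 1, for each library. The Osmads6 curve passes 62 at 4-fold, where rep1 has 209, Osmads32 9 and wild type 2.

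Near the threshold the ratios ran on without a gap. The member just inside had -2.0004 and the gene just outside -1.9906. There were 16 members within 0.1 inside and 10 genes within 0.1 outside. Outside lay CESA9 (LOC_Os09g25490), a cellulose synthase of the secondary wall, named here after its values were seen, with a ratio of -1.97. It had 38.1 FPKM in Osmads6, 195 in Osmads32, 480 in rep1 and 152 in wild type. Of 8 checked genes of secondary wall and lignin, none was a member and 6 were lowest in Osmads6 by 2-fold, and with unchecked names 8 of 16 were, against 2.88% of all measured genes.

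Members were spread over all 12 chromosomes, by their locus IDs. Chromosome 1 held 12 (0.405% of its measured genes), chromosome 6 held 11 (0.672%), chromosome 5 held 9 (0.533%) and chromosome 2 held 2 (0.0826%). LOC_Os01g41140 and another unnamed member were next to each other among measured loci, the one such pair. That neighbour, looked up after its values were seen, had 0.129 FPKM in Osmads6, 43.8 in Osmads32, 67.3 in rep1 and 38.4 in wild type. Whether the neighbours share reads was not tested.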

How the data were processed

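The authors deposited 1 table of FPKM values for 8 columns, 2 per genotype, with locus IDs of the LOC_Os series. RNA was messenger-enriched, per the labels' protocols, and the submitters' processing notes name the build IRGSP 1.0. The aligner, counting tool and annotation were not given in the sources used here. For this work the 2 columns of a genotype were averaged, a pseudocount of 1 was added for ratios, and genes averaging 1 FPKM or more were kept. For single genes, folds divide mean FPKM values with no pseudocount added.

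Whole reads were recovered from the FPKM steps for 44697 of 44713 genes above 0 (99.96%, tolerance 0.02 reads), including all 62 members, up to a factor common to the 8 columns of a gene. They were used for depth, for the floor of 3 reads per run and for WRKY62. With 1 sample per genotype no model could be fitted with a test. Intervals and floors cover counting error only.

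The members and the 28 gene lists were chosen with earlier results of these data known. Of 315 symbol and locus pairs, 183 passed a check against the RefSeq gene table of another assembly (same chromosome, at least 90% order agreement), and the symbol of 114 was absent. Named were the members with a checked name, up to 4 checked non-members of their lists by mean FPKM, the targeted genes and 2 unnamed loci. The checked anther genes, 12 that passed the filter and 5 that did not, are given as a marker list. CESA9 was added after its values were seen. No promoter or protein sequences were used here. The counting code was tested on simulated data. Python 3.11.15, pandas 2.3.3, NumPy 2.4.6 and matplotlib 3.10.9 were used. Alternatives were another pseudocount, filter, scaling, fold, single runs, leaving out each column and exchanged labels.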

Additional observations from a re-analysis of the deposited data

How the results depend on the processing

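The number of members depended most on the pseudocount, the fold and the labels. It was 62 as reported, 186 with a pseudocount of 0.1 (all 62 among them), 21 with 5, 160 at 3-fold and 15 at 8-fold. It was 60 with a mean of at least 5 FPKM, 62 with no filter, 66 after median-ratio scaling, 72 from run 1 only, 53 from run 2 only, and 55 to 70 leaving out each column in turn. With the columns labelled Osmads6 and wild type exchanged it was 2, and 62 genes were then lowest in wild type.

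With a pseudocount of 0.1, 75 members were level among the other 3 libraries, 61 had rep1 2-fold above, 186 had runs that did not overlap and 16 were next to another member. The count of genes lowest in Osmads32 was then 38, in rep1 473 and in wild type 9. With a pseudocount of 5, 15 members were level, 5 had rep1 2-fold above, 21 had runs apart and 5 were in lists. The same rule then gave 0 genes for Osmads32, 79 for rep1 and 1 for wild type. Under the exchange, 0 members were level, 1 had rep1 2-fold above, 2 had runs apart, 1 was in a list and 0 were adjacent. Adjacent members numbered 0 with no filter, where more loci lie between, 4 from run 1 only and 2 to 4 leaving out each column (4 without wild type run 2). Genes lowest in wild type numbered 5 from run 2 only and 2 to 6 leaving out each column (6 without wild type run 1). The ratio to the lowest of the other 3 reversed under the exchange for RTS (6.87), OsC6 (5.83), RAFTIN1 (2.86), CAB2R (2.76), CHS1 (2.71) and WRKY62 (2.44), by construction.

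With a pseudocount of 5, RAFTIN1 (-1.68), CHS1 (-1.59) and WRKY62 (-0.81) no longer met the rule. In the remaining settings run, the 6 named ratios were -2 or less. No paired analysis was possible because there was 1 sample per genotype and no shared replicate number. Depth limits the members at 0 to 3 reads in both Osmads6 runs, 12 of 62, for which the size of the difference is a bound or a wide interval.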
